A study of Mus musculus with 16 samples.

Results

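The miR-106b, miR-93 and miR-25 cluster is a group of 3 miRNA genes that lie head to tail inside the gene of Mcm7, a subunit of the helicase that unwinds DNA at replication forks. The 3 hairpins were taken by name from the 1087 miRNA hairpin names of GENCODE release M21, and every adapter-trimmed read of 18 to 26 nt that matched one of them without mismatch was counted and given to its 5p or 3p arm. This gave 6 arms, and no read of the cluster matched a hairpin of another name. All levels below are in CPM, the usual scale of counts relative to library size, which here is the number of inserts of 15 nt or more.

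The study sequenced small RNA from mouse mesenchymal stem cells of the C57BL/6 strain, in 16 libraries of 8 groups with 2 libraries each. Dicer f/f cells (wild type) and Dicer -/- cells (knockout) were transfected with the fluorescent protein mCherry as the control. The other groups were Dicer -/- cells transfected with human Dicer, written hsDicer, or with human Dicer bearing point changes: D1320A in the RNase IIIA domain, D1709A in the RNase IIIB domain, both of these together (the double mutant), K70A in the helicase domain, or Y971A/Y972A in the PAZ domain. All groups but the wild type thus lack mouse Dicer. The labels do not say how many cells took up each construct, whether the cells were clones, or whether replicates came from separate cultures, so p-values measure the spread between these libraries only.

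A miRNA gene is transcribed as part of a long RNA, from which the nuclear enzyme Drosha cuts a hairpin. Dicer then removes the loop: its RNase IIIB domain cuts the 5p strand and its RNase IIIA domain cuts the 3p strand, so each arm has one end made by Drosha and one end, next to the loop, made by Dicer. The PAZ domain holds the open end of the hairpin. One arm is usually kept by an Argonaute protein, and the bases numbered 2 to 8 of the kept arm, the seed, pair with target mRNAs. The cluster is a paralog of the miR-17-92 cluster. Its miRNAs are known for acting on regulators of the cell cycle, such as p21, and on the apoptosis inducer Bim.

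The hairpins lie on the minus strand of chromosome 5 in GRCm38.p6, Mir106b at 138165737 to 138165818, Mir93 at 138165523 to 138165610 and Mir25 at 138165321 to 138165404. All 3 lie in intron 13 of the principal Mcm7 transcript (Mcm7-201) and in intron 8 of Mcm7-208, while Mir93 and Mir25 also fall in exon 1 of the retained-intron transcript Mcm7-202. The precursors are printed to show where the cuts fall: capitals mark the arms, and the lower-case stretch between them is the loop that Dicer removes (RefSeq, GRCm38.p6).
Mir106b: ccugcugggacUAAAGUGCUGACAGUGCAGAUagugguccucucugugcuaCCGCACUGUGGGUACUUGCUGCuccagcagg
Mir93: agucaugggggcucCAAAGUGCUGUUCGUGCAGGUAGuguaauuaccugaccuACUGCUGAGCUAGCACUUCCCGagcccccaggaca
Mir25: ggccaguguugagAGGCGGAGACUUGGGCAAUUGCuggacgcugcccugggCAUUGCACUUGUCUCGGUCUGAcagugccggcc

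The mature arms, with the seed in capitals, show which members share targets by seed.
miR-106b-5p: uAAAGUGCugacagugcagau
miR-93-5p: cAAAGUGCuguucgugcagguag
miR-25-3p: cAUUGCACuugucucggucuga
miR-106b-3p: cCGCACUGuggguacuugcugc
miR-93-3p: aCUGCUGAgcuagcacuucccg
miR-25-5p: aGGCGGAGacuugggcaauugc
The seed AAAGUGC is shared by miR-106b-5p and miR-93-5p, which have the same base at 16 of 21 positions counted from the 5′ end. RefSeq lists the same seed in miR-17-5p, miR-20a-5p, miR-20b-5p, miR-106a-5p and miR-6383, and miR-106b-5p matches miR-17-5p and miR-20a-5p at 18 of 21 positions each. The seed of miR-25-3p, AUUGCAC, is that of miR-92a-3p, miR-92b-3p, miR-32-5p, miR-363-3p and miR-367-3p. No other mouse miRNA in the RefSeq table has the seed of miR-106b-3p, miR-93-3p or miR-25-5p.

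Libraries held 10331036 to 20502254 inserts of 15 nt or more. Exact miRNA reads made up 37.8% to 47.7% of inserts in wild type and 0.295% to 1.55% in knockout. Read length was 41 nt for replicate 1 and 51 nt for replicate 2, and the replicates also differed in diversity: 146 to 294 miRNA arms had reads in the replicate 1 libraries and 239 to 437 in the replicate 2 libraries. A single sequence could take nearly all reads of an arm in replicate 1, as for miR-106b-5p in wild type (4144 of 4149 reads in replicate 1, 2929 of 4917 in replicate 2). All 8 miRNA markers of mesenchymal cells and fibroblasts had reads, with a summed level of 177376 to 255320 CPM in wild type; Of the lists for other cell types, miR-223 of blood, miR-124 of neurons, and miR-1 and miR-133 of muscle had no reads in any library, but other markers did: the summed level ran from 1.21 to 1958 CPM over the 16 libraries for the 6 blood markers (highest in hsDicer replicate 1, by miR-155), from 0.121 to 953 CPM for the 3 muscle markers (miR-206, highest in Y971A/Y972A replicate 1), from 0 to 672.5 CPM for miR-126 of endothelium (highest in K70A replicate 1), from 0 to 165.5 CPM for the 4 neuron markers, from 0 to 59.4 CPM for the 8 pluripotent-cell markers and from 0 to 3.37 CPM for miR-122 of liver. Their part in the results was not tested. Most of the mesenchymal sum in wild type came from miR-22 (180980 and 111653 CPM) and miR-21a (61379 and 40857 CPM). The edgeR fit found a common biological coefficient of variation of 2.098 across all arms.

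In wild type the cluster was led by miR-25-3p, with 459 CPM in replicate 1 and 653 CPM in replicate 2. The arms miR-106b-5p (239.9 and 239.8 CPM) and miR-93-5p (253 and 181 CPM), which share a seed, followed at similar levels. Of the other arms, miR-106b-3p (171 and 71.1 CPM) and miR-25-5p (222 and 40.7 CPM) were lower in replicate 2, and miR-93-3p (0 and 8.88 CPM) was read in replicate 2 only. Among miRNA arms with reads, miR-25-3p ranked 67 of 156 in replicate 1 and 50 of 437 in replicate 2, and miR-106b-5p ranked 87 in both.

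Added over its 6 arms, the cluster reached 1345 and 1195 CPM in the 2 wild-type libraries and 5.71 and 26.6 CPM in the 2 knockout libraries. In bulk RNA, fewer cells with the miRNA and less of it per cell cannot be told apart. Ordered by mean, K70A stood highest (2083 ± 1364 CPM, SD, n = 2), ahead of wild type (1270 ± 105.8), hsDicer (576 ± 35.9), Y971A/Y972A (473 ± 280), D1320A (234 ± 148), D1709A (121 ± 93.3), knockout (16.1 ± 14.7) and the double mutant (13.2 ± 17.5). Of the neighbours in this order, the libraries of wild type and hsDicer did not overlap, nor did those of D1709A and knockout; all other neighbours overlapped. With 2 libraries against 2 an exact permutation test cannot give a p under 0.333, and it gave that value for every pair of groups tested that did not overlap.

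**Figure D1:**
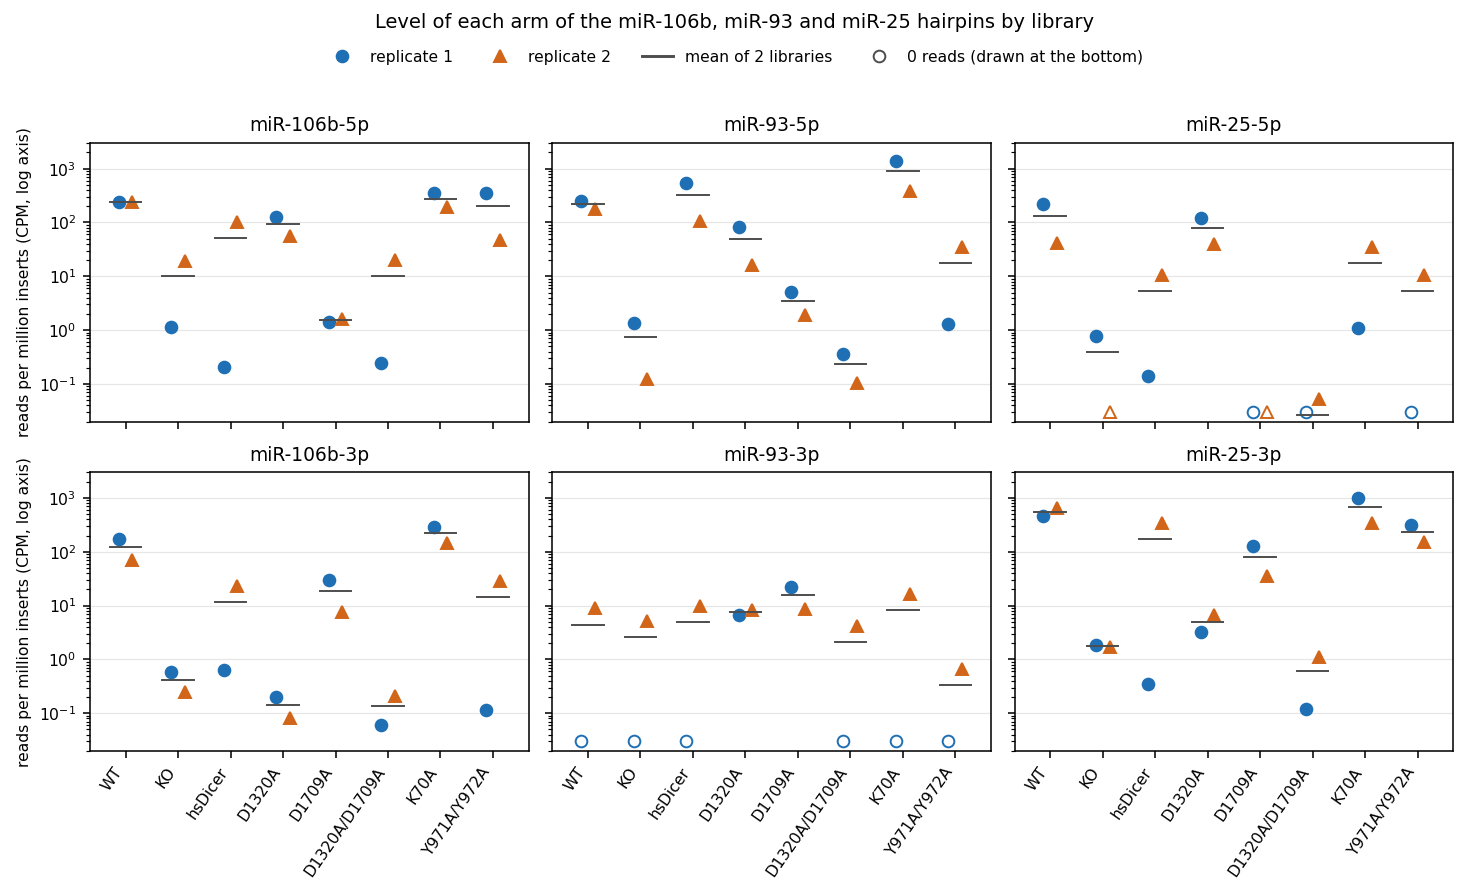
Level (CPM, log axis) of each arm in the 16 libraries, with replicate 1 as circles, replicate 2 as triangles, open symbols for 0 reads and a bar at the mean of the 2 libraries. In D1320A the 5p arms lie above the 3p arms and in D1709A the reverse, while in knockout and the double mutant 5p and 3p arms lie at or below 19.9 CPM.

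The cluster stood lower in both knockout libraries than in both wild-type libraries. The most abundant arm, miR-25-3p, had 1.84 and 1.69 CPM in knockout, a fitted log2 change of -8.29 (SE 3.19) against wild type. For miR-93-5p the knockout libraries held 1.36 and 0.125 CPM (log2 change -8.19, SE 3.28), and for miR-106b-3p they held 0.581 and 0.251 CPM (log2 change -8.17, SE 4.47). The lesser arm miR-25-5p had 0.774 and 0 CPM (log2 change -8.39, SE 5.02). The knockout libraries lay below both wild-type libraries for 5 of 6 arms, against 22.4% of all 539 arms tested; miR-93-3p, with 0 and 5.14 CPM in knockout, overlapped.

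The edgeR quasi-likelihood test called 0 of the 6 arms at a Benjamini-Hochberg adjusted p under 0.05, against 5.75% of all arms. The adjusted p was 0.107 for miR-25-3p, 0.123 for miR-93-5p, 0.324 for miR-106b-3p, 0.391 for miR-25-5p and 0.426 for miR-106b-5p, and 2 arms had an unadjusted p under 0.05. By other tools the count was 0 with DESeq2 (0 at an unadjusted p under 0.05, 5.01% of all arms called) and 4 of 5 with limma on arms of 10 CPM or more, where 47% of all arms passed. The median log2 change over all arms was -6.95, beside -8.39 to -4.55 for these 5 arms.

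Scaling by total inserts sets these sizes: with TMM the median over all arms was -1.99 and with scaling to miRNA reads -1.25, and the change of miR-106b-5p, -4.55 (SE 3.10) as reported, turned to 0.76 and 2.54.

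The knockout libraries were not alike in what they held of miR-106b. Replicate 1 had 12 miR-106b-5p reads and replicate 2 had 309 (1.16 and 19.4 CPM), but 203 of the latter were a single 26-nt sequence that runs 5 nt into the loop, and 55 more were a 24-nt sequence. Replicate 1 also held 13399 reads of a 27-nt sequence, just over the length limit, that begins at the miR-106b-5p start and runs 6 nt into the loop; replicate 2 held 275. It is printed because it was the most read miR-106b sequence in the knockout (arm in capitals).
miR-106b 27 nt: TAAAGTGCTGACAGTGCAGATagtggt
A further 423 replicate 2 reads of miR-106b began at the same base and still ran on at the end of the 51-nt read, inside the 3p arm. In replicate 2 the cluster total of 26.6 CPM thus came largely from sequences whose loop end is not that of wild type. Reads of miR-106b running 5 nt or more past the 5p arm came to 1297 and 77.9 CPM in knockout. In wild type they came to 0.173 and 2.34 CPM. Those over 26 nt are not in the cluster totals.

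The few remaining mature reads of knockout replicate 1 stood at 0.202% to 0.320% of the reads in wild-type replicate 1 for the 5 arms with reads there. Over 77 abundant fragments that lie outside miRNA hairpins and occur in wild-type replicate 1 but in no replicate 2 library, knockout replicate 1 held 0.236% of the wild-type reads (677 of 287433). In replicate 1 of the double mutant the fragments stood at 1.77% and the 5 arms at 0% to 0.137%, and in that of hsDicer the fragments stood at 0.0463% and the arms other than miR-93-5p at 0.0521% to 0.303%. Whether these reads came from another library was not tested.

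With human Dicer the cluster stood at 551 and 602 CPM, but the 2 hsDicer libraries were made up differently. In replicate 1 nearly all reads were miR-93-5p (7925 of 7944 reads, 549.7 CPM), while miR-106b-5p had 3 reads, miR-25-3p 5 and miR-106b-3p 9. In replicate 2 miR-25-3p led with 347 CPM, followed by miR-93-5p with 109, miR-106b-5p with 103 and miR-106b-3p with 23.0. That order resembled wild type, and the difference between the libraries leaves every comparison with hsDicer resting on 2 unlike values.

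Against knockout, 2 of 6 arms lay higher in both hsDicer libraries (miR-93-5p and miR-106b-3p), where 22.3% of all arms did. For miR-106b-3p the gap was narrow in replicate 1: 0.624 CPM (9 reads) in hsDicer against 0.581 CPM (6 reads) in knockout. The log2 change of miR-93-5p was 8.79 (SE 3.36) and that of miR-25-3p 6.61 (SE 2.96). By edgeR's quasi-likelihood test 0 of 6 were called, against 5.94% of all arms, with adjusted p-values of 0.115 and 0.215; 2 had an unadjusted p under 0.05, DESeq2 called 0 (4.08% of all arms) and limma 1 of 5 (38.1%). Without hsDicer replicate 2 the change of miR-25-3p turned to -2.32. Compared with wild type, hsDicer lay lower in both libraries for 4 of 6 arms, all but those of miR-93, where 9.46% of all arms did, and edgeR, DESeq2 and limma each called 0 of the cluster's arms (0 at an unadjusted p under 0.05 by edgeR and DESeq2, 2 by limma), against 0% of all arms by edgeR and limma and 2.04% by DESeq2.

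Reads with added bases at the 3′ end were counted apart. In hsDicer replicate 1, besides 9 exact reads of miR-106b-3p there were 3406 reads of this arm with 1 to 3 unmatched bases at the 3′ end, of which 96.9% had only A there. This arm had 142 tailed reads in hsDicer replicate 2, 13 in wild-type replicate 1 and 806 in wild-type replicate 2 (35.6% of the arm's reads). Added A at the end was also frequent on miR-25-3p in Y971A/Y972A replicate 1 (5591 tailed reads, 98.6% with only A), while the 9487 tailed miR-25-3p reads of wild-type replicate 1 held 4368 with only A. The exact-match counts leave all of these out. With such reads added, knockout held 0.774 and 0.438 CPM of miR-106b-3p. With tailed reads added, miR-106b-3p stood at 237 and 30.6 CPM in hsDicer, 172 and 110.4 CPM in wild type and 305 and 174 CPM in K70A, so that hsDicer overlapped both groups, whereas by exact reads it lay below both.

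The RNase III mutants split the arms. With D1320A, whose inactive RNase IIIA domain leaves the 3p strand uncut, the 5p arms kept 127 and 57.2 CPM for miR-106b-5p, 82.1 and 15.9 CPM for miR-93-5p, and 119 and 40.7 CPM for miR-25-5p. Their 3p partners stood at 0.199 and 0.0821 CPM for miR-106b-3p, 6.75 and 8.46 CPM for miR-93-3p and 3.24 and 6.65 CPM for miR-25-3p. The arm that leads the cluster in wild type was thus among its lowest here, while miR-25-5p, the lesser arm in wild type, stood above it.

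With D1709A, whose inactive RNase IIIB domain leaves the 5p strand uncut, the pattern was the reverse. The 3p arms held 128 and 35.1 CPM for miR-25-3p, 30.2 and 7.72 CPM for miR-106b-3p, and 22.5 and 8.79 CPM for miR-93-3p. The 5p arms held 1.41 and 1.64 CPM for miR-106b-5p, 5.16 and 1.93 CPM for miR-93-5p, and no read of miR-25-5p in either library, where 3 reads would be 0.234 and 0.290 CPM. The 2 seed-sharing arms, miR-106b-5p and miR-93-5p, were therefore both low in D1709A.

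Set side by side, D1320A lay above D1709A in both libraries for all 3 5p arms (24.1% of all arms did) and below it in both for all 3 3p arms (15.6% of all arms did). With tailed reads added the groups overlapped for miR-93-3p, at 18.8 and 8.46 CPM in D1320A and 23.2 and 8.88 CPM in D1709A. The fitted log2 differences were 5.91 (SE 3.31) for miR-106b-5p, -6.99 (SE 4.25) for miR-106b-3p and -4.04 (SE 2.62) for miR-25-3p. For miR-25-5p the fit gave 13.26 (SE 5.93), a value that depends on the small count edgeR adds where a group has no reads. None of these passed edgeR's quasi-likelihood test (0 of 6 called, 1 at an unadjusted p under 0.05, against 2.04% of all arms called, 0.742% lower and 1.3% higher), with adjusted p-values of 0.568, 0.568, 0.575 and 0.348 in the order given; DESeq2 called 3 (15.2% of all arms) and limma 0 of 5 with 2 at an unadjusted p under 0.05 (21.3% of all arms called).

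Each RNase III mutant was also compared with hsDicer, so these comparisons share the same 2 control libraries. D1320A lay below hsDicer in both libraries for 2 of 6 arms (miR-106b-3p and miR-93-5p, against 17.3% of all arms). It lay above hsDicer for miR-25-5p (8.53% of all arms). D1709A lay below hsDicer for miR-25-5p and miR-93-5p (18.9% of all arms). Some of these rested on few reads: miR-106b-3p had 3 and 1 in D1320A against 9 in hsDicer replicate 1. For miR-25-5p, D1709A had none and hsDicer replicate 1 had 2. With tailed reads added, miR-106b-3p stood at 0.265 and 0.0821 CPM in D1320A and 237 and 30.6 CPM in hsDicer. The edgeR test called 0 of 6 in D1320A (0 at an unadjusted p under 0.05, 2.04% of all arms called) and 0 of 6 in D1709A (1 at an unadjusted p under 0.05, 3.34% of all arms called). In D1709A the change of miR-93-5p was -6.53 (SE 3.04, adjusted p 0.372). DESeq2 called 0 in both (1 in each at an unadjusted p under 0.05; 8.91% of all arms called in D1320A and 5.94% in D1709A). Limma called 0 of 5 in D1320A (12.9% of all arms) and 1 of 5 in D1709A (23.3%).

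The share of a hairpin's 18 to 26 nt reads that fell on the 5p arm does not depend on library size. For the 3 hairpins summed, it was 97.0% and 88.2% in D1320A and 3.51% and 6.47% in D1709A, and each of these shares lay outside the exact 95% binomial intervals of the other group. Wild type stood between them at 53.1% and 38.6%, as did K70A (57.3% and 54.7%) and Y971A/Y972A (52.4% and 33.6%). In hsDicer the share was 99.8% in replicate 1, where miR-93-5p made up nearly all reads, and 36.9% in replicate 2. Knockout had 57.6% and 73.3%, of 59 and 424 reads. An exact permutation test gave p = 0.333 for D1709A against hsDicer and for D1320A against D1709A, neither of which overlapped, and p = 1 for D1320A against hsDicer, which did.

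Taken hairpin by hairpin, miR-25 was the hairpin read mostly from its 3p arm in wild type (32.6% and 5.87% on the 5p arm). Its 5p share was 97.4% and 85.9% in D1320A and 0 of 1636 and 0 of 364 reads in D1709A, with exact upper 95% limits of 0.225% and 1.01%. For miR-106b, wild type had 58.3% and 77.1%, D1320A 99.8% and 99.9%, and D1709A 4.44% and 17.5%. For miR-93, which in wild type is almost wholly read from its 5p arm (100% and 95.3%), D1709A had 18.6% and 18.02%, so that miR-93-3p became the more read arm, while D1320A had 92.4% and 65.3%.

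The 5p share lay lower in both D1709A libraries than in both hsDicer libraries for all 3 hairpins, where 45% of the 100 hairpins with reads in all 4 libraries did. It lay higher in D1320A than in hsDicer for miR-106b and miR-25 (2 of 3, against 37.1% of 105 hairpins), and higher in D1320A than in D1709A for all 3 (60.8% of 120 hairpins). The split of the cluster's arms was therefore shared by many other hairpins. The hsDicer replicate 1 shares rested on few exact reads for miR-106b (3 on 5p, 9 on 3p) and miR-25 (2 and 5). With tailed reads added, that library held 0.208 CPM of miR-106b-5p and 237 CPM of miR-106b-3p. D1709A then held 1.48 and 49.8 CPM of these arms in replicate 1, and 5.21 and 7.82 CPM in replicate 2. The miR-106b share was thus higher in both D1709A libraries than in hsDicer replicate 1, unlike by exact reads. In edgeR's interaction test, which compares the 5p to 3p ratio between groups on the log2 scale over 183 hairpins, D1320A minus D1709A was 12.61 (SE 6.27) for miR-106b, 17.12 (SE 6.71) for miR-25 and 4.41 (SE 5.19) for miR-93, beside a median of 9.44 over all hairpins; the value for miR-25 again rests on a group without reads.

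By that edgeR test 0 of 3 were called (2 at an unadjusted p under 0.05; 0% of all hairpins), with adjusted p-values of 0.261, 0.206 and 0.677. Limma with a pseudocount of 0.5 called miR-106b and miR-25 (adjusted p 0.0218 and 0.0116), as it did 26.2% of all hairpins. The 5 ratio comparisons with hsDicer gave 0 calls in the cluster by edgeR and by limma, and at an unadjusted p under 0.05 there were 0 by edgeR and 2 by limma (miR-106b in D1320A and miR-25 in D1709A); over all hairpins limma called 5.46% in D1320A and 0% in the other 4, and edgeR 0% in each.

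**Figure D2:**
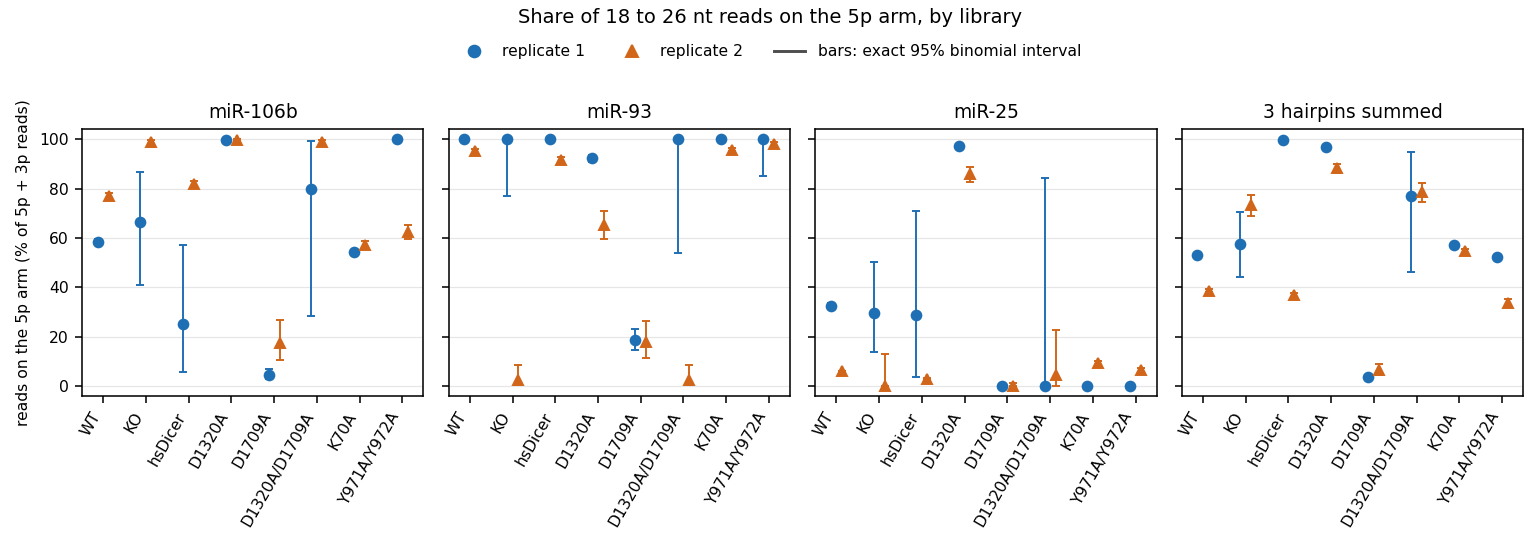
Percent of 18 to 26 nt reads on the 5p arm, by library, for each hairpin and for the 3 summed; bars are exact 95% binomial intervals, which cover counting error only. The summed D1320A libraries stand at 97.0% and 88.2%, the D1709A libraries at 3.51% and 6.47%, and the hsDicer libraries far apart at 99.8% and 36.9%.

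The 3p reads that remained in D1320A were mostly not mature miRNA. None of the 102 and 103 reads given to miR-93-3p began at its RefSeq start: they began 16 or 11 nt upstream, in the loop. For miR-25-3p, 10 of 49 reads in replicate 1 and 2 of 81 in replicate 2 had both RefSeq ends, and a 26-nt sequence that begins 9 nt upstream made up 79 of the 81. Counting only reads with both ends within 2 nt of RefSeq, D1320A held no mature miR-93-3p read in either library (0 against 1240 and 156 reads of miR-93-5p), and the 5p share of the summed cluster was 99.7% and 99.8%. In D1709A the RefSeq sequence made up 1466 of 1636 and 360 of 364 miR-25-3p reads. For miR-93-3p it made up 288 of 288 reads in replicate 1 and 53 of 91 in replicate 2, where 37 more were 1 nt longer at the 3′ end. For miR-106b-3p it made up 154 of 387 reads in replicate 1, where 120 began 1 nt inside the arm, and 1 of 80 in replicate 2, where 79 ended 1 nt short.

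Reads longer than a miRNA gave the other side of the half-cut hairpin. In D1320A, fragments that began just after the 5p arm and ran through the loop to the end of the 3p arm were read from all 3 hairpins. They are printed, with the 3p arm in capitals, to show that in these fragments the 5p strand was cut and the 3p strand was not. The exception is the 32-nt miR-106b form, printed last, which begins further into the loop and does not mark the 5p cut.
miR-93 39 nt: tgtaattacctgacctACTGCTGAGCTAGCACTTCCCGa
miR-93 38 nt: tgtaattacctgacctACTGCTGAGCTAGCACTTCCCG
miR-25 37 nt: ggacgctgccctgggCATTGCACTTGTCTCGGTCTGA
miR-106b 40 nt: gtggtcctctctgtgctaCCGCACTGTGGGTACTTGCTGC
miR-106b 32 nt: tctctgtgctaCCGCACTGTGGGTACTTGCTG
The 39-nt miR-93 fragment was read 1296 times in replicate 1 and 964 times in replicate 2, and the 38-nt form 1519 and 465 times. The miR-25 fragment was read 1084 and 380 times. The miR-25 fragment begins at base 37, right after the 23-nt form of miR-25-5p that led in both D1320A libraries. The miR-93 fragments begin at base 38, right after the 23-nt RefSeq form of miR-93-5p, which led in replicate 1 (531 of 1240 reads, with 517 of the 21-nt form) but not in replicate 2 (40 of 194, with 114 of the 21-nt form). The 40-nt miR-106b fragment, read 132 and 95 times, begins at base 34, right after the 22-nt form of miR-106b-5p that leads in wild type; the 32-nt form, 71 and 121 reads, begins 7 bases further into the loop.

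Counted within 2 nt of both ends, such loop and 3p fragments of D1320A numbered 3595 and 1430 for miR-93 (238 and 117 CPM), 1237 and 380 for miR-25 (81.9 and 31.2 CPM) and 278 and 95 for miR-106b (18.4 and 7.80 CPM). In the other 14 libraries together, miR-106b had none, and miR-25 had at most 1 in a library, with none in 13 of 14. For miR-93 the highest count elsewhere was 125, in K70A replicate 2, and 5 of 14 libraries had none. In D1320A the miR-93 fragment was read more often than miR-93-5p itself, in both libraries.

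D1709A held the mirror image, 5p arms that ran through the loop up to the base before the 3p arm (5p arm in capitals).
miR-25 38 nt: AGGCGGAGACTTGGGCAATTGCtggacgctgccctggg
miR-93 39 nt: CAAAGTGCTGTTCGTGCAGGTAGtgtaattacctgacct
miR-106b 40 nt: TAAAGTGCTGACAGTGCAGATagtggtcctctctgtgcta
The miR-25 fragment was read 133 times in replicate 1 and 79 times in replicate 2 (10.4 and 7.63 CPM) and in none of the other 14 libraries, while mature miR-25-5p was absent from D1709A. The miR-93 and miR-106b fragments were seen in replicate 2 of D1709A, 162 and 110 reads in these forms and 273 and 110 within 2 nt of both ends; replicate 1 had 0 and 1. The miR-93 fragment occurred in 2 other libraries, with at most 49 reads, but for miR-106b a higher count was found in knockout replicate 2 (199), and hsDicer replicate 2 and Y971A/Y972A replicate 2 had 113 and 109. The miR-106b fragment was thus not limited to D1709A, whereas the miR-25 fragment was found there alone among these libraries.

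In D1709A replicate 1, the 41-nt read length bounded what could be seen: 691 miR-106b reads and 86 miR-93 reads began at the 5p start and still ran on at the end of the read, inside the 3p arm. The same open-ended miR-106b read was found 766 times in D1320A replicate 1 and 3644 times in Y971A/Y972A replicate 1. The open-ended miR-93 read was found 557 times in hsDicer replicate 1 (38.6 CPM, against 6.72 in D1709A replicate 1). In D1320A replicate 1, 55 miR-93 reads ran from the 5p start into the 3p arm. Whole precursors from the start of one arm to the end of the other span 62 nt for Mir106b, 61 nt for Mir93 and 60 nt for Mir25, longer than the reads and the 15 to 50 nt cut from the gel. No library held a read of a freed loop, cut at both sides within 2 nt. The loops between the RefSeq arms have 19 nt in Mir106b and 16 nt in Mir93 and Mir25. Inserts under 15 nt were not kept, so shorter loops could not be seen.

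**Figure D3:**
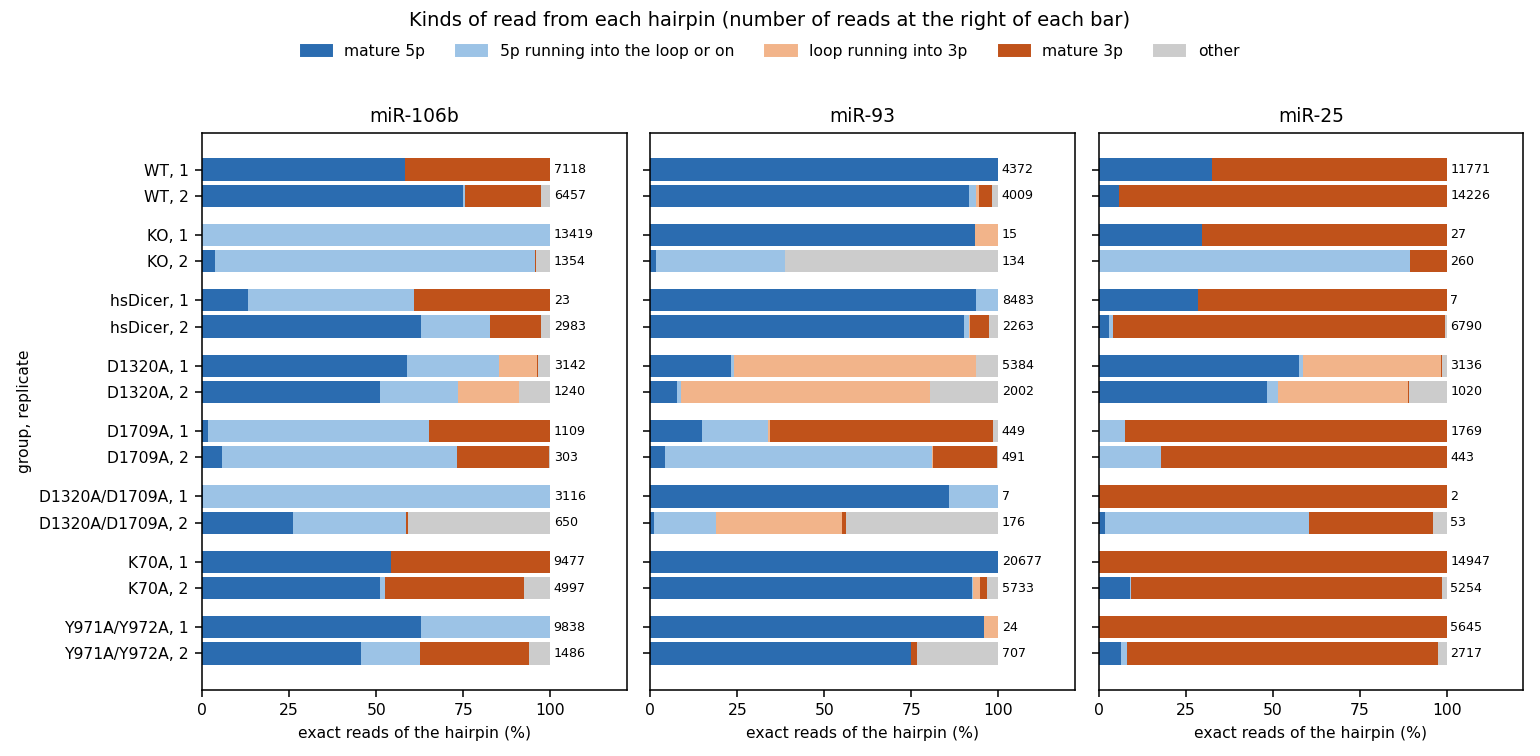
Percent of the exact reads of each hairpin, of any length, by kind and library, with the number of reads at the right: mature arms have both ends within 2 nt of RefSeq, the paler kinds run 5 nt or more past the cut, and grey holds all other reads. Fragments that run from the loop into the 3p arm make up 69.4% and 71.4% of the miR-93 reads in D1320A, and 5p arms that run into the loop make up 99.9% of the 13419 miR-106b reads of knockout replicate 1.

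**Figure D4:**
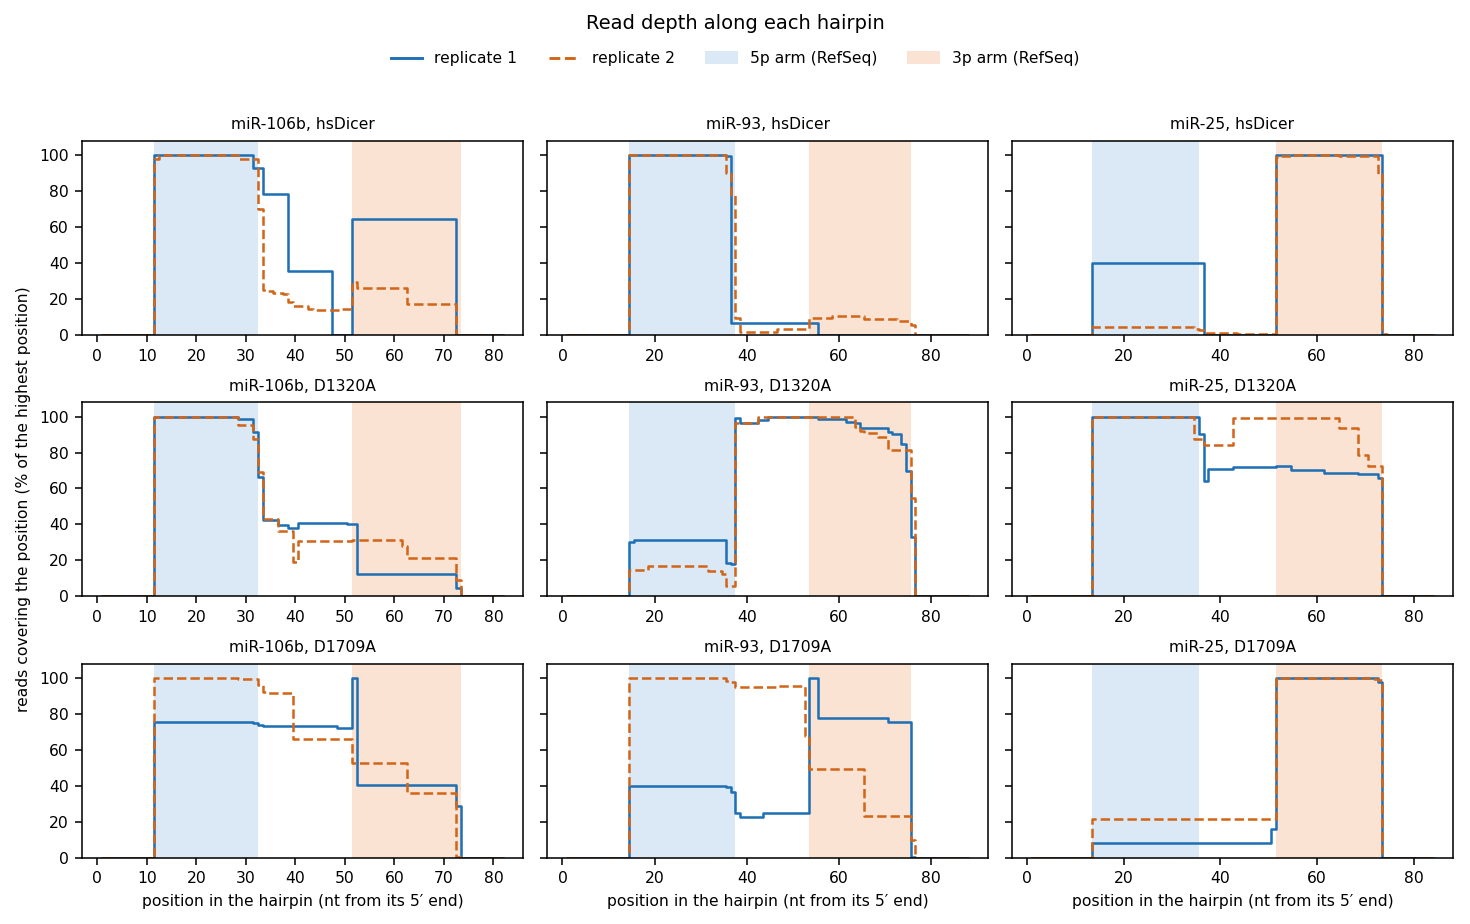
Read depth along the hairpins of miR-106b, miR-93 and miR-25 in hsDicer, D1320A and D1709A, as percent of the highest position in that library against the position from the hairpin's 5′ end (nt); shading marks the RefSeq arms. In D1320A the loop and the 3p arm of miR-93 (from base 38 on) are covered together, and in D1709A the depth of miR-25 runs level from base 14 through the loop and steps up at base 52, where the 3p arm begins.

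The double mutant, with neither RNase III domain active, held 0.790 and 25.6 CPM of the cluster. In replicate 1 only 13 reads of 18 to 26 nt were counted over the 3 hairpins. In replicate 2 most reads were miR-106b-5p (379 reads, 19.9 CPM), of which 115 were a 24-nt sequence and 98 the 22-nt form, and 77 of the 79 reads given to miR-93-3p were a sequence that begins 4 nt upstream of that arm. Longer miR-106b reads were frequent, with 3109 reads of a 36-nt sequence in replicate 1, from the 5p start into the loop, and 162 of a 28-nt sequence in replicate 2.

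The double mutant lay below hsDicer in both libraries for 3 of 6 arms (miR-106b-3p, miR-93-5p and miR-25-5p), against 23.2% of all arms. For miR-25-5p this rested on 0 and 1 reads against 2 in hsDicer replicate 1, and for miR-106b-3p on 1 and 4 against 9. With tailed reads added, miR-106b-3p stood at 0.182 and 0.210 CPM in the double mutant and 237 and 30.6 CPM in hsDicer. Here miR-93-5p fell from 549.7 and 109 CPM in hsDicer to 0.364 and 0.105 CPM, a log2 change of -10.41 (SE 3.57), and passed edgeR's quasi-likelihood test with an adjusted p of 0.0450. It was the only one of the 6 arms called, where 7.98% of all arms were called. The change of miR-25-3p, which had 0.121 and 1.11 CPM, was -8.12 (SE 3.16, edgeR adjusted p 0.0955). The call of miR-93-5p was lost without hsDicer replicate 1, without either library of the double mutant, with TMM, with scaling to miRNA reads and with up to 2 unmatched 3′ bases, and DESeq2 called 0 (6.31% of all arms) while limma called 1 of 5 (38.1%); the change of miR-25-3p became 0.81 without hsDicer replicate 2.

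K70A, in the helicase domain, had the highest mean of the cluster, with 3048 and 1118 CPM, but replicate 2 lay below both wild-type libraries (1345 and 1195 CPM). For miR-93-5p the libraries held 1397 and 381 CPM, for miR-25-3p 1009 and 343 CPM, for miR-106b-5p 347 and 196 CPM and for miR-106b-3p 293 and 147 CPM. By exact reads both miR-106b arms lay above hsDicer in both libraries (2 of 6, against 7.42% of all arms). The libraries of the other arms overlapped those of hsDicer. With tailed reads added miR-106b-3p overlapped too, at 305 and 174 CPM in K70A and 237 and 30.6 CPM in hsDicer. By edgeR 0 of 6 were called (0 at an unadjusted p under 0.05, 0% of all arms), as by DESeq2 (1 at an unadjusted p under 0.05, 2.97% of all arms called) and limma (2 of 5 at an unadjusted p under 0.05, 0% called).

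In K70A the 5p shares of miR-106b, 54.2% and 57.3%, were close together. The most used forms were the 21-nt miR-106b-5p in replicate 1 (3763 of 5133 reads) and the 22-nt form in replicate 2 (1381 of 2729), with the 23-nt miR-93-5p in both (71.7% and 78.7% of its reads).

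Y971A/Y972A, in the PAZ domain, gave 671 and 274 CPM, a range that spans the hsDicer values. Its libraries were unlike. Replicate 1 held 350.2 CPM of miR-106b-5p and 319 CPM of miR-25-3p, with 2 reads of miR-106b-3p and 23 of miR-93-5p. Replicate 2 held 153 CPM of miR-25-3p, 47.2 of miR-106b-5p, 34.6 of miR-93-5p and 28.4 of miR-106b-3p. In replicate 1, 99.6% of miR-106b-5p reads were a 20-nt sequence, 1 nt short of the RefSeq end; in replicate 2 the 21-nt form led (41.6%). Only miR-93-5p lay below hsDicer in both libraries (1 of 6, against 8.91% of all arms), and 0 of 6 were called by edgeR (0 at an unadjusted p under 0.05, 0% of all arms), DESeq2 (1 at an unadjusted p under 0.05, 4.64% of all arms called) or limma (1 of 5 at an unadjusted p under 0.05, 0% called).

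Read ends were compared with RefSeq in wild type. All 4149 and 4917 reads of miR-106b-5p began at the RefSeq start, but the leading form ended 1 nt past the RefSeq end in both libraries and the second form at it. The leading form of miR-93-5p ended 2 nt short of RefSeq in replicate 1 (21 nt, 99.9% of reads) and at it in replicate 2 (23 nt, 59.1%). For miR-25-3p, whose 5′ end is the one Dicer makes, the leading form was the RefSeq sequence in both wild-type libraries (7931 of 7933 and 10549 of 13391 reads), so the seed stayed in register. In hsDicer replicate 2 the leading forms had 22 nt for miR-106b-5p, 23 nt for miR-93-5p and 22 nt for miR-25-3p, as in wild-type replicate 2, while in hsDicer replicate 1 a 22-nt form of miR-93-5p, 1 nt short of RefSeq, made up 7880 of 7925 reads.

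Relatives of the cluster that share its seeds were read from the same libraries. Of the arms with the miR-106b and miR-93 seed, 4 of 5 with reads had enough for the test: the members miR-106b-5p and miR-93-5p, so that the counts are not independent of the cluster, and miR-17-5p and miR-20a-5p. All 4 had a negative fitted change in knockout (0 called, median -6.63 beside -6.95 over all arms, of which 5.75% were called). In D1709A against hsDicer all 4 were negative too (0 called against 3.34% of all arms, median -5.80 beside -2.21). In D1320A against D1709A all 4 fitted differences were positive (0 called against 2.04% of all arms, median 4.57 beside 0). Of the pair outside the cluster, miR-17-5p had 92.1 and 65.6 CPM in D1320A and 0.156 and 3.67 CPM in D1709A, and miR-20a-5p had 100.4 and 48.9 CPM in D1320A and 0 and 26.2 CPM in D1709A.

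The arms with the miR-25 seed were 4, the member miR-25-3p among them, and all were tested. In knockout 1 was called lower by edgeR, where 5.75% of all arms were (miR-92-3p, GENCODE's name for miR-92a-3p, with 793 and 1017 CPM in wild type and 6.10 and 2.94 CPM in knockout), with a median log2 change of -8.00 over the 4. The same arm was the one called higher in hsDicer against knockout (5.94% of all arms) and lower in the double mutant against hsDicer (7.98% of all arms). In D1320A miR-92-3p had 16.4 and 4.43 CPM and in D1709A 860 and 105 CPM, the side on which miR-25-3p also lay higher. The fourth member, miR-32-5p, carries the same seed on its 5p arm and stood at 116 and 38.6 CPM in D1320A and 1.41 and 3.19 CPM in D1709A.

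Of the miR-17-92 cluster, the paralog, 12 arms were tested. Again miR-92-3p was the only arm called in each of those 3 comparisons, with the same shares of all arms called. Numbered copies of a hairpin were pooled by name, so the miR-92 and miR-19b arms include copies of the miR-106a-363 cluster. Their reads were not split between the clusters. The median of the 12 was -6.58 in knockout against wild type and -8.09 in the double mutant against hsDicer. In D1320A against D1709A, where the list holds arms of both strands, 6 of 12 were lower and the median was -0.02. Under names of its own, the miR-106a-363 cluster had reads from 1 arm, miR-106a-5p, too few to test.

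For the 5 members with a mean of 10 CPM or more, which leaves out miR-93-3p, the arms whose levels over the 16 libraries were most alike were named by Pearson's r of log2(CPM + 1) among 353 arms. For miR-93-5p these were let-7g-5p (0.947), miR-98-5p (0.943) and let-7d-5p (0.920). For miR-25-3p they were miR-151-3p (0.979), miR-30a-3p (0.895) and miR-148a-3p (0.849), and for miR-25-5p miR-148a-5p (0.946), miR-664-5p (0.942) and miR-185-5p (0.928). For miR-106b-5p they were miR-186-5p (0.938), miR-193a-5p (0.866) and miR-16-5p (0.777), and for miR-106b-3p miR-130a-3p (0.9552), miR-23a-3p (0.924) and miR-872-5p (0.837). The points share libraries, depth and replicate runs, so these values describe the libraries only. The arms nearest to the 5p members were all 5p arms, the arms nearest to miR-25-3p were all 3p arms, and 2 of the 3 nearest to miR-106b-3p were 3p arms.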

How the data were processed

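The 16 small RNA libraries fall into 8 groups of 2. Per the labels' protocols, Trizol-extracted RNA was size-selected on a gel (15 to 50 nt) before the usual Illumina library steps. The authors deposited counts, that is, how often each distinct untrimmed read was seen. For the tools of that step, the sources used here name none.

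The labels' 3′ adapter was cut off at a match of 12 bases, or of at least 5 at the read end. Inserts of 15 nt or more served as library size. Inserts of 18 to 26 nt had to match 1174 GENCODE M21 hairpins (GRCm38) exactly and in sense. They were summed by name, with numbered copies of a hairpin pooled, and given to an arm. Of 62 distinct reads of the cluster, 42 also match the Mcm7 transcripts that hold it. Reads are not counts of unique molecules, so intervals cover counting error only. For the long fragments, 1 to 4 adapter bases at the read end were also removed where the rest matched a hairpin of the cluster, and reads without adapter were kept as open-ended.

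The 539 of 576 arms that reached 20 reads over all libraries entered 2-sided edgeR 4.0.16 quasi-likelihood tests of 9 level comparisons in R 4.3.3, and the 183 hairpins that did so on both arms entered 6 ratio comparisons, with Benjamini-Hochberg adjustment over each table. Standard errors are approximate. Single values were compared by 2-sided exact permutation. Tests were checked on simulated data. DESeq2 1.42.0 and limma 3.58.1 served as alternatives, as did other scalings, filters, read rules, the replicate block and each library left out. Counting and plots used Python 3.11.15, scipy 1.17.1 and matplotlib 3.10.9.

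The members, lists, markers and tests were chosen with earlier results of these data known. Always named were the 6 arms. In the 4 lists (the seed families and the paralog clusters) the rule named called arms and the most abundant ones, and it named the 3 arms most like each member with a mean of 10 CPM or more. The miR-25 seed family was planned with the 3p arm of Mir32, but RefSeq has the seed on miR-32-5p, which was used.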

Additional observations from a re-analysis of the deposited data

How the results depend on the processing

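Of the 6 arms, edgeR called 0 in knockout against wild type. Limma on arms of 10 CPM or more called 4 (47% of all arms) and edgeR with that filter 2 (34.7%). For hsDicer against knockout these gave 1 (38.1%) and 2 (28.2%) in place of 0. Limma gave 1 for D1709A against hsDicer (23.3%). The 1 call in the double mutant against hsDicer became 0 with TMM (1.11% of all arms), with scaling to all miRNA reads (0.186%), with DESeq2 and with up to 2 unmatched 3′ bases, and 2 with the 10 CPM filter (32.7%); leaving out a library gave 0 to 1, with 0 without hsDicer replicate 1 or either double-mutant library. In D1320A against D1709A DESeq2 called 3 in place of 0 (15.2% of all arms). Limma called 2 of 3 ratios there with a pseudocount of 0.5 or 5 (26.2% and 27.9% of all hairpins). The cause of these differences was not tested.

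Replicate numbers were not taken as pairs: over 28 pairs of groups, deviations of same-numbered libraries correlated at -0.0088 to 0.43 (median 0.129, over 0.1 in 18). With the replicate block, edgeR called 2 arms in knockout against wild type (9.65% of all arms), 1 in hsDicer against knockout (7.79%) and 2 in the double mutant against hsDicer (10.9%); with the block and the 10 CPM filter it called 2 in each (37.6%, 37.1% and 37.6% of all arms). Limma with the block called 2 ratios in D1320A against D1709A (36.1% of all hairpins). The block changed no other call.

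Directions turned for miR-106b-5p in knockout against wild type, whose log2 change was 0.76 with TMM, 2.54 with scaling to miRNA reads and 1.96 with DESeq2. When a library was left out, that of miR-25-3p ran from -2.32 (without hsDicer replicate 2) to 7.61 in hsDicer against knockout and from -10.39 to 0.81 (without hsDicer replicate 2) in the double mutant against hsDicer. Over all 54 fitted level changes of the cluster, 28 turned direction under a setting or without a library, as did 5 of 18 ratios.

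The mean 5p share of the cluster in the double mutant was 75.4% at a read length of 20 to 24 nt, 60.1% when up to 2 bases were unmatched and 82.1% with reads at both usual ends, a rule chosen after seeing the data; the last gave 99.8% in D1320A. With unmatched bases allowed it was 51.9% in K70A. Replicate 1 of the double mutant, with 13 reads, limits the share there.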
